A study of Mus musculus with 6 samples.

Results

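Secreted WNT antagonists were examined in palatal tissue of mouse embryos that lack Shox2, which encodes a homeodomain protein of anterior palatal mesenchyme. The 10 genes were taken by symbol from 23420 genes in the count files: the Dickkopf genes Dkk1, Dkk2 and Dkk3, the secreted frizzled-related genes Sfrp1, Sfrp2, Sfrp4, Sfrp5 and Frzb, and Wif1 and Notum. RNA was sequenced at E14.5 from C57BL/6 tissue of the region that becomes the anterior hard palate. The Shox2 mutant group was Shox2Cre/-;Nkx2.5F/F and the control group was Shox2Cre/+;Nkx2.5F/F, with 3 libraries in each. Both groups therefore carried a Cre allele at Shox2, which drives recombination in Shox2-expressing cells, and a homozygous floxed Nkx2-5 gene. The controls, although titled wild type, had a single intact Shox2 allele. Whether a library holds 1 embryo or pooled embryos is not stated, so p-values cover only the variation among libraries, which may be technical.

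WNT proteins are lipid-modified signals that bind Frizzled receptors together with the coreceptors LRP5 and LRP6 and stabilise beta-catenin in the receiving cell. Frizzled-related proteins and WIF1 bind WNT proteins outside the cell, most Dickkopf proteins bind the LRP coreceptors, and NOTUM is an enzyme that removes the lipid from WNT. In the developing palate and in membranous bone, WNT signalling takes part in shelf growth and osteoblast differentiation.

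Total counts were 52668242 to 53331397 in the mutant libraries and 81950407 to 134813429 in the controls, so that every control was deeper than every mutant. Shox2 itself had 5.30, 4.12 and 3.13 CPM (counts scaled to library size with edgeR's TMM method) in mutant replicates 1, 2 and 3, against 88.2, 68.2 and 81.7 CPM in the controls. All 8 markers of palatal mesenchyme were detected in every library, with a summed level of 1552 to 1789 CPM in the mutants and 2086 to 2239 CPM in the controls, of which Prrx1 was the largest part. Of these 8, Msx1 (-2.07 on the log2 scale), Pdgfra (-0.51) and Twist1 (-0.44) were called lower and Pax9 (0.50) higher. Mutant replicate 1 stood apart from the other mutants on the second principal component, and 99.7% of its counts from 5 to 50 were even, against 63.6% to 73% in the other 5 libraries. Control replicate 1 had the lowest level of its group for 7 of the 10 antagonists. Values without these 2 libraries are given for Dkk3, Sfrp1, Sfrp2, Sfrp4, Wif1 and Notum. Dkk1, Dkk2, Sfrp5 and Frzb kept their direction and call without them.

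The antagonists moved in opposite directions. Dkk1, Frzb and Sfrp5 fell in the mutant tissue, Dkk2, Sfrp2 and Sfrp4 rose, and Dkk3, Sfrp1, Wif1 and Notum did not pass the test. All 10 genes had enough counts to be tested. The 6 that passed edgeR's quasi-likelihood test, at a Benjamini-Hochberg adjusted p of at most 0.05 over all genes, stand against a background of 45.8% of the 16604 genes tested (24.1% higher and 21.7% lower). All 6 changed over 2-fold, with Sfrp2 just past that size. Of all tested genes, 17.3% both passed the test and changed over 2-fold. Groups did not overlap for 5 antagonists, against 58.9% of tested genes. The median log2 fold change was -0.20 over the 10 genes and 0.00 over all tested genes, and the median absolute log2 fold change was 1.12 and 0.38.

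**Figure D1:**
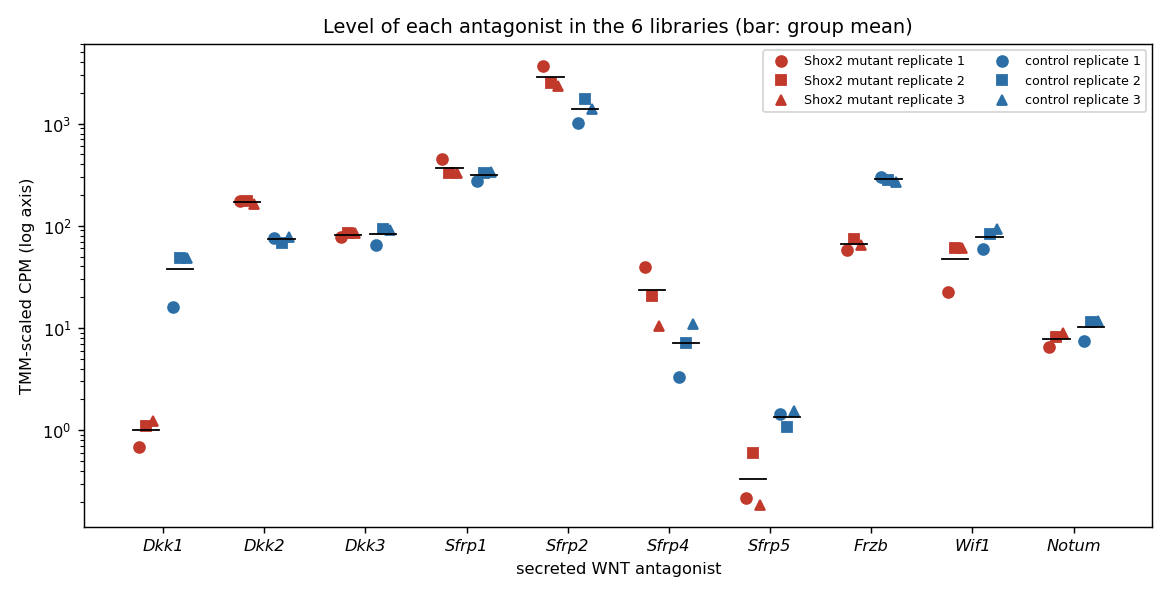
TMM-scaled CPM on a log axis for each of the 10 antagonists, mutant libraries (red) left of controls (blue), with a bar at the group mean. Dkk1 sits near 1 CPM in all mutants and between 16.1 and 48.7 CPM in the controls, while Sfrp2 is at 1014 CPM or more in every library.

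Promoter sequence is shown for 4 antagonists called under every alternative setting, 2 that fell and 2 that rose. It was taken from the 250 bases before the RefSeq start on GRCm38.p6, without any bases that GENCODE M21 places within the gene. Capitals mark TGTGGT (or its reverse complement ACCACA), a RUNX motif. Also searched were CTTTGA (or TCAAAG), the core of the TCF/LEF motif through which beta-catenin acts, and the homeobox core TAATTA, and neither is in the letters shown. The Dkk1 stretch is chr19:30549666-30549746 (minus strand), that of Sfrp5 chr19:42202253-42202502 (minus strand), that of Dkk2 chr3:132085042-132085291 (plus strand) and that of Sfrp2 chr3:83766071-83766320 (plus strand).
Dkk1: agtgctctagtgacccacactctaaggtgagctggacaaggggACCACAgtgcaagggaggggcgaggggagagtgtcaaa
Sfrp5: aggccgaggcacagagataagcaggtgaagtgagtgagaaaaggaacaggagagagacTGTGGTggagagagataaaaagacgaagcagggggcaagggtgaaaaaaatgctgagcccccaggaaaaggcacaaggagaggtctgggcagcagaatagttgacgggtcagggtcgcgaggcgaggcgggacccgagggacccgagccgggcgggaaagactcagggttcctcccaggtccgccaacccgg
Dkk2: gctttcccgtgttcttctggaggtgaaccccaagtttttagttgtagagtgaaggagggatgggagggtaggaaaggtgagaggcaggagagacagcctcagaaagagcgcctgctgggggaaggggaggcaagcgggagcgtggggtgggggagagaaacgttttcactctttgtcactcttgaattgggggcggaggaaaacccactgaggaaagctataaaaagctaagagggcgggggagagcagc
Sfrp2: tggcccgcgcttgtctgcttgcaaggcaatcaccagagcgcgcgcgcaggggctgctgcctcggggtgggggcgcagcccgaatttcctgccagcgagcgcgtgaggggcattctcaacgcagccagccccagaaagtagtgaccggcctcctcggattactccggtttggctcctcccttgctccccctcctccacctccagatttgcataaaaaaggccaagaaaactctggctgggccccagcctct
For Dkk1 the stretch is 81 bases long, since the other 169 bases of its window lie within the gene as GENCODE annotates it. Its whole window held TGTGGT 1 time and CTTTGA 2 times, starting 174 and 117 bases before the RefSeq start. The first CTTTGA match overlaps the annotated 5′ end by 1 base and the second lies within the gene. The Sfrp5 window held TGTGGT 1 time, and the windows of Dkk2 and Sfrp2 held none of the 3 motifs. Among 32851 RefSeq windows of the same length, 13.8% held CTTTGA, 14% held TGTGGT and 4.84% held TAATTA, searched on both strands. Sequence was at hand for 6 of the 10 genes. Of the windows not shown, that of Frzb, with 229 of its 250 bases within the gene, held CTTTGA 1 time, inside the gene, and that of Wif1 held none. A match is a string of letters in a window and no evidence of binding.

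Dkk1, which blocks LRP5 and LRP6 and is an inhibitor of bone formation, had the largest change of the group. It lies on chromosome 19 from 30545863 to 30549665 on the minus strand, in GENCODE M21 on GRCm38, which places its 5′ end upstream of the RefSeq start. It had 38, 60 and 66 counts in mutant replicates 1, 2 and 3, against 1303, 4918 and 6441 counts in the controls. Scaled, these were 0.690, 1.11 and 1.23 CPM in the mutants and 16.1, 48.7 and 48.6 CPM in the controls. Every mutant was far below every control, and control replicate 1 was well under the other controls. The log2 fold change was -5.23 (SE 0.50, edgeR adjusted p = 0.000423), a size met or passed by 0.927% of tested genes. Across 19 alternative settings it lay between -5.60 and -4.27 and was called in each.

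Dkk2, a close relative that also binds LRP coreceptors, changed the other way. It lies on chromosome 3 from 132085292 to 132180304 on the plus strand. Its level was 176, 175 and 162 CPM in the mutants and 76.1, 67.9 and 77.7 CPM in the controls. Levels within each group were close, and the groups were well apart. Dkk2 rose by 1.21 on the log2 scale (SE 0.08, edgeR adjusted p = 0.000189), and by 1.12 to 1.28 over the alternatives. As a description of the opposite changes, Dkk1 had 0.00392, 0.00635 and 0.00757 CPM per CPM of Dkk2 in the mutants and 0.212, 0.718 and 0.626 in the controls. Dkk3, a divergent Dickkopf on chromosome 7 that is not known as an LRP-binding inhibitor, had 77.0, 84.7 and 84.2 CPM in the mutants and 64.6, 93.4 and 91.0 CPM in the controls. Its groups overlapped, and its log2 fold change of -0.02 had a 95% interval from -0.34 to 0.31. Without replicate 1 of both groups it was -0.138 (edgeR adjusted p = 0.0654).

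Sfrp2, which binds WNT proteins through a cysteine-rich domain like that of the Frizzled receptors, was the most abundant antagonist in every library. It lies on chromosome 3 from 83766321 to 83774316 on the plus strand. Its level was 3668, 2513 and 2309 CPM in the mutants, against 1014, 1735 and 1400 CPM in the controls, and the groups did not overlap. In the mutants it ranked 8 among all tested genes by mean CPM. Sfrp2 rose by 1.03 on the log2 scale (SE 0.24, edgeR adjusted p = 0.0115), with a 95% interval from 0.46 to 1.60. Mutant replicate 1 was the highest and control replicate 1 the lowest library. Without both of them the log2 fold change was 0.61 (edgeR adjusted p = 0.00435). An antisense transcript, Gm26771, overlaps Sfrp2 and, since the strand setting of the counting is not given, its reads cannot be told apart from those of Sfrp2. Shox2 lies on chromosome 3 as well, 16.8 megabases from Sfrp2 and 65.1 megabases from Dkk2.

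Frzb, a frizzled-related inhibitor known from cartilage, changed with little spread. It lies on chromosome 2 from 80411970 to 80447625 on the minus strand. The mutants had 58.1, 74.4 and 65.6 CPM and the controls 303, 281 and 270 CPM. The highest mutant was far under the lowest control, and neither replicate 1 stood out. The log2 fold change was -2.11 (SE 0.10, edgeR adjusted p = 0.000137) and -2.20 to -1.99 over the alternatives. Sfrp5, on chromosome 19 from 42197971 to 42202252 (minus strand), was the least abundant member. It had 12, 32 and 10 counts in the mutants, against 117, 108 and 204 counts in the controls, which is 0.218, 0.592 and 0.186 CPM in the mutants and 1.45, 1.07 and 1.54 CPM in the controls. The groups did not overlap despite the low counts. The log2 fold change was -2.02 (SE 0.50, edgeR adjusted p = 0.0139), and -2.73 to -1.74 over the alternatives, in each of which it was called.

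Sfrp4, a frizzled-related inhibitor with a role in cortical bone, rose with a wide spread. It lies on chromosome 13 from 19623104 to 19632994 on the plus strand. The mutants had 39.8, 20.6 and 10.4 CPM and the controls 3.32, 7.17 and 10.9 CPM, so that mutant replicate 3 was under control replicate 3. The log2 fold change was 1.72 (SE 0.56, edgeR adjusted p = 0.0399), with a 95% interval from 0.41 to 3.04. The call was lost when control replicate 1 was left out (adjusted p = 0.0797), and likewise for control replicate 2 (0.0948), mutant replicate 1 (1.11 on the log2 scale, adjusted p = 0.125) or mutant replicate 2 (0.0784), and limma-voom did not make it (0.0586). Without replicate 1 of both groups the log2 fold change was 0.76 (edgeR adjusted p = 0.0989). Sfrp1, the relative of Sfrp2 on chromosome 8, had 452, 325 and 329 CPM in the mutants and 274, 330 and 340 CPM in the controls. Mutant replicate 1 was above all other libraries, the remaining values overlapped, and the log2 fold change of 0.23 (95% interval -0.12 to 0.58) did not pass. Without replicate 1 of both groups it was -0.045.

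WIF1 binds WNT through a domain of its own. Its gene on chromosome 10 had 22.5, 60.1 and 60.9 CPM in the mutants, against 59.3, 82.7 and 93.4 CPM in the controls. The groups overlapped by a small margin, with control replicate 1 beside mutant replicates 2 and 3. The log2 fold change was -0.71 (95% interval -1.56 to 0.13, edgeR adjusted p = 0.145). Over the alternatives it lay between -0.93 and -0.38 and was called in 2 of 19, without replicate 1 of both groups (-0.55, edgeR adjusted p = 0.00116) and with the replicate number as a block (-0.82, adjusted p = 0.0197). Notum, on chromosome 11, had 6.54, 8.19 and 8.92 CPM in the mutants and 7.50, 11.5 and 11.8 CPM in the controls. The log2 fold change was -0.38 (95% interval -0.89 to 0.13, edgeR adjusted p = 0.188). Over the alternatives it lay between -0.58 and -0.04 and was called in 2 of 19, without control replicate 1 (-0.58, edgeR adjusted p = 0.0331) and without replicate 1 of both groups (-0.46, adjusted p = 0.0214). It was -0.29 without control replicate 2 and -0.28 without control replicate 3, and -0.04 (adjusted p = 0.928) with a covariate for Y-linked genes. Notum overlaps the antisense transcripts Notumos and Myadml2os, which carries the same limit as for Sfrp2.

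**Figure D2:**
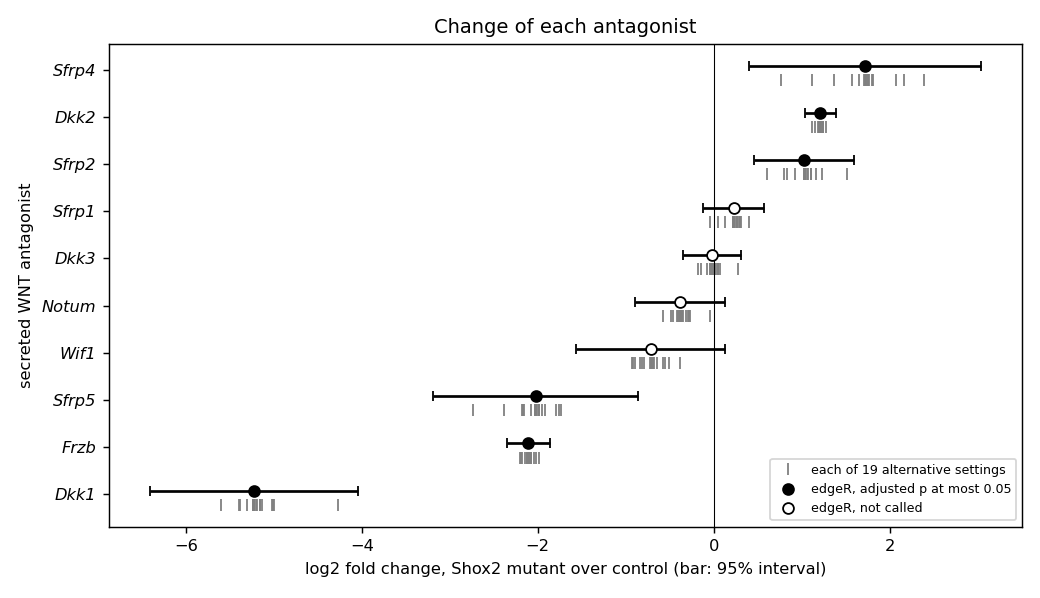
Log2 fold change of each antagonist, mutant over control, with its 95% interval from edgeR, and grey ticks for the 19 alternative settings. Dkk1, Frzb and Sfrp5 lie wholly below 0, Dkk2, Sfrp2 and Sfrp4 wholly above, and the other 4 intervals cross 0.

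The summed level of the 10 genes followed that of Sfrp2 and was higher in every mutant than in every control. With so few libraries the exact permutation test could not pass the threshold used for genes, so it cannot decide whether the sum differed. The sum was 4501, 3262 and 3031 CPM in the mutants and 1819, 2658 and 2344 CPM in the controls, a ratio of means of 1.58 (exact permutation test, two-sided, p = 0.1, the smallest that 3 against 3 libraries allows, adjusted p = 0.133 over 16 sums and shares). Without replicate 1 of both groups, the highest mutant and the lowest control, the ratio was 1.26, and it was 1.38 to 1.73 with 1 library left out at a time. Sfrp2 made up most of the sum. Without it the sum was 833, 750 and 722 CPM in the mutants and 805, 923 and 945 CPM in the controls, a ratio of 0.862 in the other direction (exact p = 0.2). The Dickkopf sum was 254, 260 and 248 CPM in the mutants, against 157, 210 and 217 CPM in the controls, with Dkk2 gaining more CPM than Dkk1 lost. The summed CPM of the 10 antagonists was also divided by that of the 19 listed WNT ligands. This ratio was 10.8, 6.70 and 6.20 in the mutants and 4.80, 8.21 and 6.26 in the controls, with overlapping groups (exact p = 0.6).

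Levels of different genes were compared per kilobase of the longest coding transcript. On that scale Sfrp2 held 89.5%, 85.9% and 85.3% of the antagonist sum in the mutants and 68.2%, 75.9% and 71.3% in the controls. Frzb held 0.902%, 1.62% and 1.54% in the mutants, against 12.9%, 7.82% and 8.75% in the controls. Both shares were separated between the groups (exact permutation test, p = 0.1 for each, the smallest possible, adjusted p = 0.133). In the mutants the order of level per kilobase was Sfrp2, Sfrp1, Dkk2, Dkk3, Frzb, Wif1, Sfrp4, Notum, Dkk1 and Sfrp5. Of these, Dkk3 and Frzb, Frzb and Wif1, Wif1 and Sfrp4, Sfrp4 and Notum, and Dkk1 and Sfrp5 overlapped between libraries. In the controls it was Sfrp2, Frzb, Sfrp1, Wif1, Dkk3, Dkk2, Dkk1, Notum, Sfrp4 and Sfrp5, with overlap between Wif1 and Dkk3, Dkk3 and Dkk2, and Dkk2 and Dkk1. Frzb thus stood 5 in the mutant order and 2 in the control order.

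**Figure D3:**
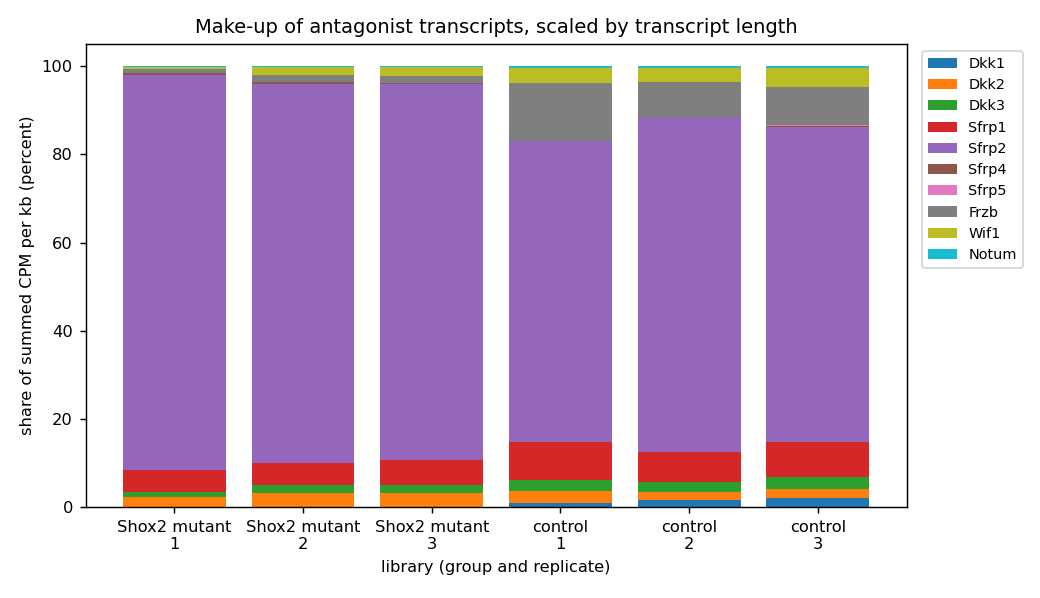
Share of each antagonist in the summed CPM per kilobase of transcript, in percent, for the 3 mutant libraries and the 3 controls. The Sfrp2 share is 85.3% to 89.5% in the mutants and 68.2% to 75.9% in the controls, and the Frzb share is at most 1.62% in the mutants.

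Markers of other cell types differed between the groups. In bulk tissue, fewer cells of a type and less RNA per cell cannot be told apart. Of 8 tested osteoblast markers 7 were lower and none higher, with a summed level of 200 to 388 CPM in the mutants and 725 to 3140 CPM in the controls, and Bglap and Bglap2 at 0 counts in at least 1 library. All 8 markers of surface epithelium were higher, at 4979 to 5629 CPM in the mutants and 929 to 1570 CPM in the controls. All 6 tested markers of ciliated epithelium were higher, at 521 to 581 CPM in the mutants and 29.2 to 135 CPM in the controls, with Sntn at 0 in at least 1 library. All 5 macrophage markers were higher too, at 164 to 262 CPM in the mutants and 43.7 to 67.5 CPM in the controls. Of 7 cartilage markers 3 were lower (Col2a1, Col11a2 and Col9a1). The sum of all 7 was 136 to 155 CPM in the mutants and 275 to 634 CPM in the controls. The others were not called, with ratios of mutant to control mean CPM of 1.74 for Acan, 1.03 for Comp, 0.918 for Sox9 and 0.617 for Matn1. Of the remaining lists, 5 of 5 tested skeletal muscle markers, 3 of 6 nerve and glia markers and 3 of 6 tooth germ markers were lower, and none of 5 endothelial markers was called. The part of these tissues in the antagonist results was not tested.

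Among the controls, Dkk1 was lowest in the library with the least osteoblast marker RNA. So were Dkk3, Sfrp1, Sfrp2, Sfrp4, Wif1 and Notum, of which Sfrp2 and Sfrp4 were called higher in the mutants. Dkk2, Sfrp5 and Frzb were not lowest there. The low Dkk1 level of that library is therefore not particular to Dkk1, and a link to the osteoblast markers was not tested. Control replicate 1 had 725 CPM of the 9 osteoblast markers and 16.1 CPM of Dkk1, and control replicates 2 and 3 had 3140 and 2742 CPM of the markers and 48.7 and 48.6 CPM of Dkk1. Frzb was highest in control replicate 1. The markers differed in how far they were lower in the mutants. By the ratio of mean CPM, Ibsp, a bone matrix protein, was 45.4-fold lower and Dmp1, a matrix protein of osteocytes, 39.8-fold lower, beside 37.4-fold for Dkk1. Spp1 was 11.3-fold, Phex 7.93-fold and Sp7, an osteoblast transcription factor, 4.43-fold lower. Runx2, which acts earlier in the lineage, was 2.46-fold and Alpl 2.39-fold lower. Groups overlapped for Spp1 and Alpl. Control replicate 1 had 5.03 CPM of Spp1, under all mutants (5.99 to 13.6 CPM). Bglap2 was 2.26-fold lower and not called, and Bglap had too few counts to be tested.

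**Figure D4:**
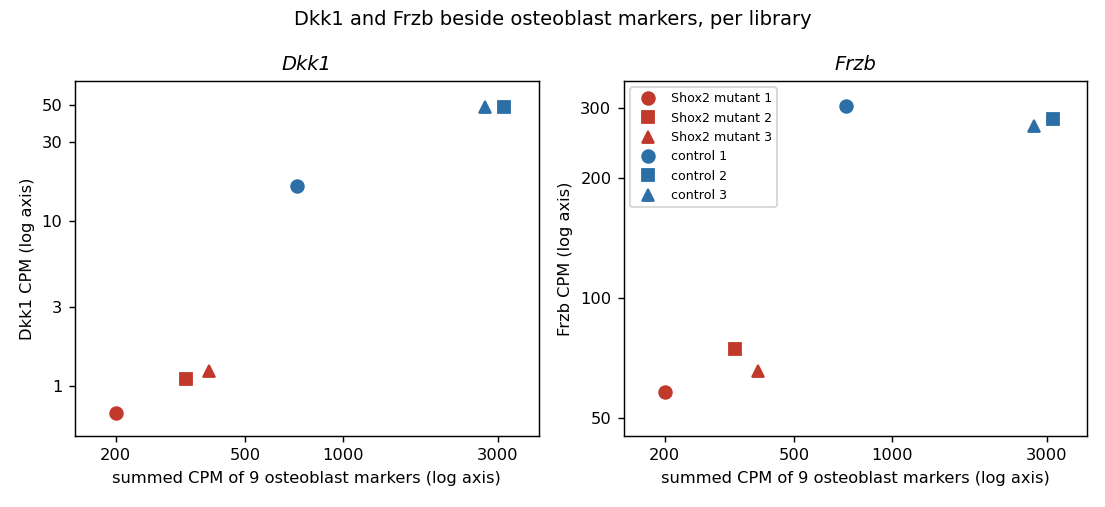
Dkk1 (left) and Frzb (right) in CPM against the summed CPM of 9 osteoblast markers, both on log axes, 1 point per library. Control replicate 1 is low for both the markers and Dkk1 but has the highest Frzb level, 303 CPM. It is also the lowest control for Dkk3, Sfrp1, Sfrp2, Sfrp4, Wif1 and Notum, which are not drawn.

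Other genes of the WNT pathway moved in both directions at about the rate of all genes. Of 86 listed genes 83 were tested, and 18 were higher, 19 lower and 46 not called, with a median log2 fold change of -0.02. Wnt1, Wnt8a and Wnt8b had too few counts. The called share was 44.6%, against 45.8% of all tested genes. Both numbers moved with the setting. The number called higher was 24 without replicate 1 of both groups (27.3% of all genes) and 12 with the covariate for Y-linked genes (17%). In the test above it was 18 (24.1%). The number called lower moved as well. It was 27 without replicate 1 of both groups and 23 with DESeq2, where 26.8% and 22% of all genes were lower, against 21.7% in the test above. It was 12 when only genes reaching 1 CPM in 3 libraries were kept (22.2% of all genes), and 12 without mutant replicate 2 (15.4%) or 3 (17.2%). With the covariate for Y-linked genes, which differed between the libraries, 8 were called lower, and over all genes 2409 against 3607. Among the called genes of smallest p per role, calls were then lost for Apcdd1, Fzd2, Porcn, Gpc1, Rspo4, Gsk3a, Dvl2, Tcf7 and Myc. These kept their direction, with edgeR adjusted p from 0.0524 for Gsk3a to 0.24 for Dvl2. Their log2 fold changes were larger for Porcn (0.658) and slightly smaller for Fzd2 (-0.265) and Gsk3a (-0.256). They were smaller for Apcdd1 (0.346), Gpc1 (-0.326), Rspo4 (-1.88), Dvl2 (-0.179), Tcf7 (-0.731) and Myc (-0.22).

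Among 12 further genes listed as inhibitors, 5 rose and 3 fell. Dkk4, the remaining LRP-binding Dickkopf and a product of epithelial placodes, had 0 counts in all mutants and 120, 86 and 163 counts in the controls, at least 63.7-fold lower by a floor of 3 counts over the mutant group. Dkkl1, a Dickkopf-like gene, rose by 3.18 on the log2 scale (SE 0.40, edgeR adjusted p = 0.00102), with 3.85, 4.29 and 3.61 CPM in the mutants and 0.198, 0.545 and 0.536 CPM in the controls. Apcdd1, a membrane-bound inhibitor, rose by 0.57 (SE 0.12). Rnf43 (0.87, SE 0.25), Nkd2 (0.62, SE 0.18) and Znrf3 (0.36, SE 0.10) were also called higher. Of the receptors and coreceptors, 3 rose, 3 fell and 12 were not called. Kremen1, a membrane partner of Dickkopf proteins, had 155, 184 and 195 CPM in the mutants and 102, 109 and 106 CPM in the controls, a rise of 0.75 (SE 0.09, edgeR adjusted p = 0.000917). Lrp5 (0.15, SE 0.10) and Lrp6 (-0.11, SE 0.08), the coreceptors that DKK1 and DKK2 bind, were not called. Fzd6 rose by 1.03 (SE 0.21), and Fzd2 was at -0.28 (SE 0.07, edgeR adjusted p = 0.0148), not called without control replicate 2 or mutant replicate 2 or 3.

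Among the ligands 5 rose, 2 fell and 9 were not called. Wnt11 rose by 1.53 (SE 0.17), Wnt10a by 1.18 (SE 0.13) and Wnt7b by 1.42 (SE 0.19), with edgeR adjusted p of 0.000591, 0.00067 and 0.00118. Wls, the carrier that WNT needs to leave the cell, fell (-0.35, SE 0.06), and Porcn, which attaches the lipid that NOTUM removes, was at 0.51 (SE 0.16, edgeR adjusted p = 0.0361), not called with any control left out or without mutant replicate 1 or 2. Of the 6 glypicans, cell-surface proteins that bind WNT and NOTUM, Gpc5 rose (2.04, SE 0.31) and Gpc1 (-0.59, SE 0.13) and Gpc2 (-0.80, SE 0.18) fell. Of 7 R-spondin and LGR genes, which enhance WNT signalling, Rspo2 (1.22, SE 0.22) and Lgr6 (0.98, SE 0.23) rose and Rspo4 fell (-2.41, SE 0.55).

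Downstream of the receptors most genes were not called. Gsk3a fell (-0.30, SE 0.06), and Dvl2 was at -0.22 (SE 0.08, edgeR adjusted p = 0.0471), a call lost in 11 of 19 alternatives. The other 7 of 9 genes of the destruction complex and beta-catenin did not pass. Lef1 (-1.60, SE 0.16) and Tcf7 (-1.39, SE 0.31), partners of beta-catenin on DNA, fell, and Bcl9l rose (0.43, SE 0.08). Of 5 genes listed as targets, 2 fell and 3 were not called. Inhibitors, some of which the pathway may itself induce, were counted under their own role and are not among these. Sp5 had 0.436, 0.999 and 1.06 CPM in the mutants and 9.30, 4.68 and 5.94 CPM in the controls. Its log2 fold change was -2.99 (SE 0.42, edgeR adjusted p = 0.00146). Myc fell too (-0.48, SE 0.12). Axin2, the most widely used readout of the pathway, had 73.5, 73.5 and 71.3 CPM in the mutants and 70.5, 57.5 and 60.6 CPM in the controls, and was not called (0.21, SE 0.09, edgeR adjusted p = 0.0812).

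**Figure D5:**
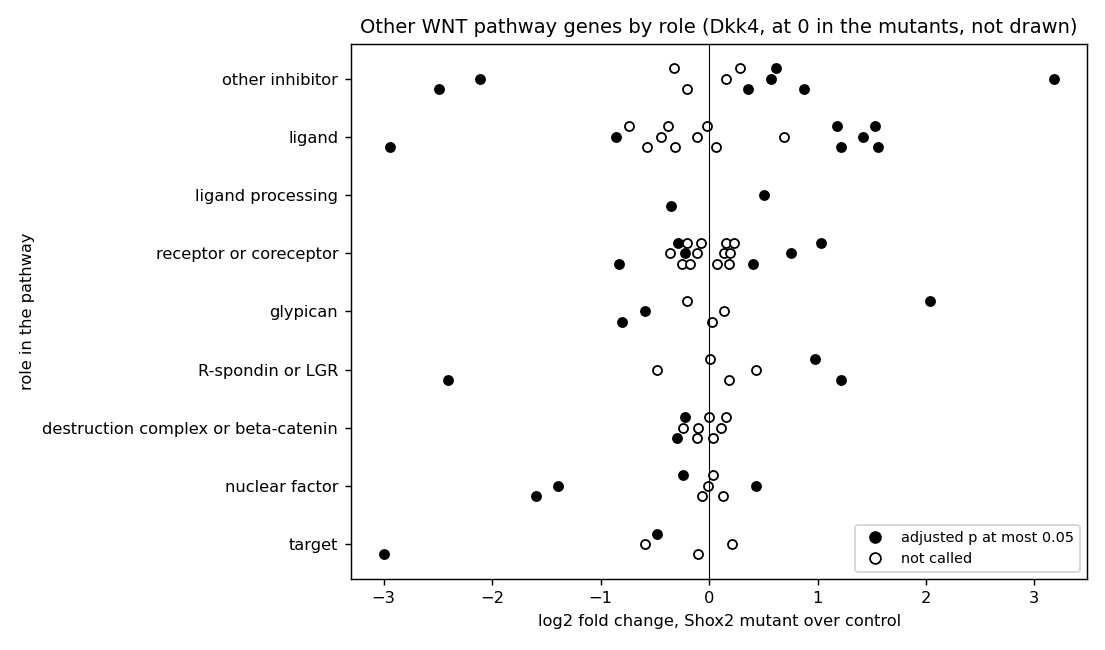
Log2 fold change, mutant over control, of 82 other WNT pathway genes by role, filled where the edgeR adjusted p was at most 0.05. Filled points lie on both sides of 0 in most roles, with Dkkl1 at 3.18 and Sp5 at -2.99 among the outermost.

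The genes most like each of the 3 antagonists with the smallest p were found by Pearson's r of log2 CPM over the 6 libraries, among 11803 genes. For Frzb these included Gcsh (0.9997) and Bcas2 (0.998). For Dkk2 they were Nipal3 (0.999), Lmln (0.999) and Atg2a (0.999), and for Dkk1 they were Golm1 (0.999), Larp7 (0.999) and Cdip1 (0.999). All of these r rest mainly on the step between the groups and describe these libraries only. The sizes of change differed from those of the antagonists, with log2 fold changes of -0.82 for Gcsh, 1.56 for Nipal3 and -0.77 for Golm1.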

How the data were processed

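Whole-number counts per gene symbol, 1 file per library, were deposited without normalization. Per the submitters' processing notes, HISAT2, StringTie and the builds mm9 and mm10 were used in ways not specified, and HISAT2 appears per the file headers of 4 libraries. The sources used here do not give the counter, strand setting or annotation. Even counts prevail, so reads may have been counted by mate, and counting error is then understated.

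Groups came from the titles and genotypes. Counts were fitted with edgeR 4.0.16 in R 4.3.3 (filterByExpr by group, TMM, quasi-likelihood F test without covariates, Benjamini-Hochberg adjustment over all tested genes, threshold 0.05). SE is the absolute log2 fold change over the square root of F. Sums and shares were compared with exact permutation tests over 6 libraries. Positions, lengths and GC content came from GENCODE M21 (21777 of 23420 symbols matched, 93%), promoters from RefSeq on GRCm38.p6. The edgeR step was tested on simulated data.

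The 10 antagonists and all lists were chosen with earlier results of these data known. Named beside them were up to 3 called genes of smallest p per pathway role, and for 3 antagonists the 3 best-correlated autosomal genes. A gene that this rule names is not reported here. Genes outside this rule (Lrp5, Lrp6, Axin2, Rnf43, Nkd2, Znrf3) were named after their values were seen. The 19 alternatives included DESeq2 1.42.0, limma-voom 3.58.1, other scalings and filters, each library left out, halved counts, thinned controls, a covariate of Y-linked genes and a GC and length correction.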

Additional observations from a re-analysis of the deposited data

How the results depend on the processing

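Dkk1, Dkk2, Sfrp2, Sfrp5 and Frzb kept their direction and their call under all 19 alternatives. Sfrp4 kept its direction and lost its call in 8 of 19, with log2 fold changes from 0.76 to 2.39. Thus 2 to 3 antagonists were called higher in every alternative, beside 17% to 27.3% of all genes. With replicate 1 of both groups left out, 5 antagonists were called lower, against 3 with all libraries, since Wif1 and Notum joined. The share of all genes called lower was then 26.8%, against 21.7%. With 1 library left out at a time 3 to 4 antagonists were called lower, beside 15.4% to 21.6% of all genes. Dkk3, near 0, changed sign with library size only (0.051), upper quartile scaling (0.015), the filter of 1 CPM in 3 libraries (0.011) and the Y-linked covariate (0.279), and ranged from -0.182 to 0.073 with 1 library left out. Sfrp1 was at -0.045 without replicate 1 of both groups. Of the other WNT pathway genes 19 were called lower with all libraries (21.7% of all genes) and 12 with the 1 CPM filter (22.2%). With the Y-linked covariate 8 were (2409 of all genes, against 3607). Without replicate 1 of both groups 27 were (26.8%), with DESeq2 23 (22%), and with 1 library left out 12 to 20 (15.4% to 21.6%). Those called higher were 18 with all libraries and 12 with the Y-linked covariate (2822 of all genes, against 3999). They were 24 without replicate 1 of both groups (27.3% of all genes). With 1 library left out they were 14 to 22, beside 18.7% to 23.5% of all genes. The Y-linked genes stood at 7.64 to 7.93 log2 CPM in the mutants and 5.22 to 7.59 in the controls, so sex make-up and genotype coincide in part. The cause of these changes was not tested. The summed levels moved by less than the spread between replicates under other scaling and with 1 library left out. Without replicate 1 of both groups, a setting chosen after seeing the data for these sums, the log2 ratio was 0.331 for all 10 genes, 0.368 for the frizzled-related genes and -0.344 without Sfrp2, against 0.662, 0.724 and -0.214 with all libraries. Replicate numbers were not taken to pair the libraries, since deviations from the group means correlated at 0.081, 0.082 and 0.02, under the 0.1 required, although 5 of 6 libraries, all but control replicate 3, correlated best with their own number. With the replicate number as a block, 2 antagonists were called higher and 4 lower (Sfrp4 at adjusted p = 0.114, Wif1 at 0.0197), and 17 and 18 of the other WNT genes. In that setting 22.4% of all genes were called higher and 19.9% lower. Depth limits Sfrp5 and Dkk4, with counts of at most 32 in the mutants.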
